A study of Mus musculus with 2 samples.

Results

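The N-myc downstream-regulated gene (Ndrg) family holds 4 members in the mouse, Ndrg1, Ndrg2, Ndrg3 and Ndrg4, and all 4 were detected in long-read RNA-seq of hindlimb muscle. They were chosen by symbol, as every transcript model that the deposited tables give to one of these genes, and they account for 4 of the 15747 annotated genes with reads. In replicate 1 they hold 89 of 81166 models, and in replicate 2 they hold 51 of 74548 models. Reads per model were among the values that led to this choice, so the levels and the split of Ndrg2 between chains are given as a description. Both libraries came from total RNA (2 µg each) of the gastrocnemius, a calf muscle, of 14-day-old B6CASTF1/J females, an F1 hybrid whose parental alleles the tables do not separate. The mice carried no other labelled allele and received no labelled treatment. Replicate 1 is labelled as material of 3 females and replicate 2 as a female with no number given, while both carry the same donor identifier. The labels therefore form 1 group of 2 libraries, there is no contrast of conditions, and each test below compares the reads of replicate 1 with those of replicate 2.

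In mm10, Ndrg1 lies at chr15:66929318-66969640 on the minus strand, Ndrg2 at chr14:51905271-51914158 on the minus strand, Ndrg3 at chr2:156927345-156992056 on the minus strand and Ndrg4 at chr8:95676980-95715119 on the plus strand.

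NDRG proteins share the fold of the alpha/beta hydrolases but lack the residues needed for catalysis. NDRG2 is abundant in skeletal muscle, heart and the astrocytes of the brain, and its carboxy-terminal tail is phosphorylated by insulin-responsive kinases. NDRG1 rises in hypoxia and is repressed by MYC, and its loss causes a demyelinating neuropathy because Schwann cells need it to keep myelin. NDRG3 has been described as a lactate-binding protein that is degraded through the oxygen-sensing pathway, and NDRG4 is best known from heart and brain.

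The sequences that separate the Ndrg2 chains and the matching stretches of the other members are shown first. The coding sequence of Ndrg2 contains a cassette exon of 42 bases, exon 3, at chr14:51911086-51911127 on the minus strand (mm10). It holds 14 whole codons with no stop in frame. Ndrg1 has an exon of 36 bases in the corresponding place, in front of the run of exons that all 4 genes share, at chr15:66959362-66959397 on the minus strand. Ndrg3 has an exon of 36 bases there, at chr2:156958467-156958502 on the minus strand. Ndrg4-202, the Ndrg4 transcript compared here, has none. Other annotated Ndrg4 transcripts were not compared at this place. In each line the exon is in capitals and 15 coding bases on either side are in lower case, from the GENCODE M21 transcripts.
Ndrg2 exon 3: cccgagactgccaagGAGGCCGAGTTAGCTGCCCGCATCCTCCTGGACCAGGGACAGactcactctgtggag
Ndrg1: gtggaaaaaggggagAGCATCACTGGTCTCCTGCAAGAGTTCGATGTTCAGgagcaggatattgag
Ndrg3: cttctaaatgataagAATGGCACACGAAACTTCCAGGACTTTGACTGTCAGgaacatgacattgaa
The exons of Ndrg1 and Ndrg3 have the same base at 19 of 36 positions when laid side by side without gaps. Of the Ndrg2 exon, 66.7% of the bases are G or C.

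Near the other end of the coding sequence, Ndrg3 and Ndrg4 each have a cassette exon of 39 bases, or 13 codons, that the annotated Ndrg1 and Ndrg2 transcripts compared here do not have. That of Ndrg3 lies at chr2:156929932-156929970 on the minus strand and that of Ndrg4 at chr8:95712325-95712363 on the plus strand. They are shown because they are the only other annotated coding exons by which the detected known models of a member differ.
Ndrg3: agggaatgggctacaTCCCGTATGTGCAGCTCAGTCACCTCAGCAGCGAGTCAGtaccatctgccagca
Ndrg4: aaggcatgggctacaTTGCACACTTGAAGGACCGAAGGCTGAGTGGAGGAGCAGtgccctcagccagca
These exons have the same base at 18 of 39 positions.

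Between these cassettes the 4 genes are laid out almost alike. From the 106-base exon onward, Ndrg2 has 12 internal exons, and Ndrg1, Ndrg3 and Ndrg4 each have 11 exons of the same length in the same order. The exception is the eighth of the run, which has 57 bases in Ndrg1, 45 in Ndrg2, 66 in Ndrg3 and 57 in Ndrg4. The annotated coding sequence without its stop is 394 codons in Ndrg1, 371 in Ndrg2, 388 in Ndrg3 and 352 in Ndrg4, in the transcripts Ndrg1-201, Ndrg2-201, Ndrg3-201 and Ndrg4-202.

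**Figure D1:**
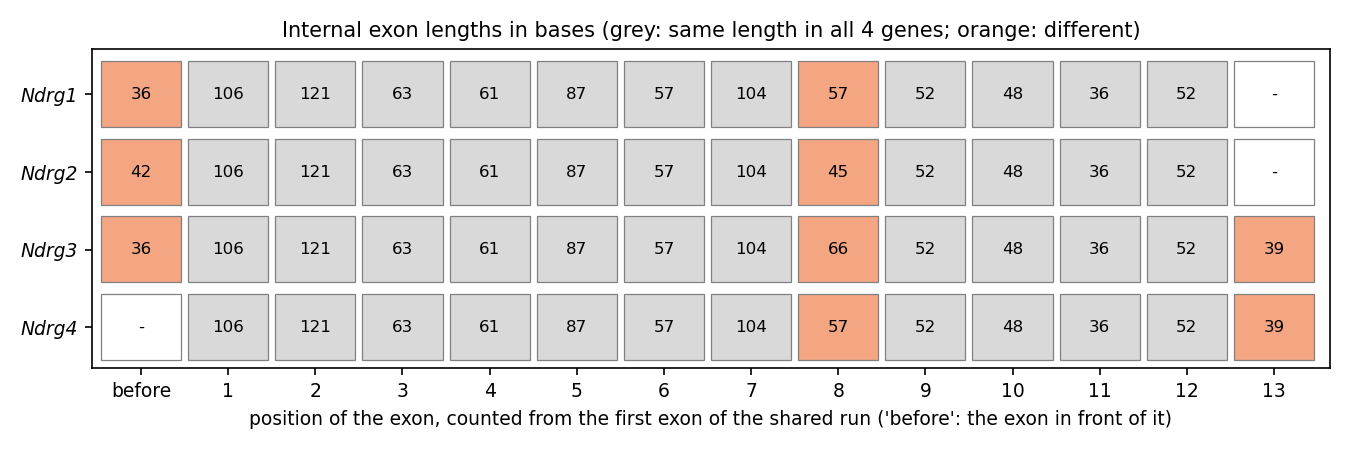
Lengths in bases of the internal exons of 1 annotated transcript of each Ndrg gene, in the order of transcription; a dash means that the transcript has no internal exon there. Grey boxes have the same length in all 4 genes, and the orange column inside the shared run holds the exon of 57, 45, 66 and 57 bases.

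Depth was alike in the libraries but model length was not. The tables hold 1316937 reads in replicate 1 and 1204188 in replicate 2, of which 1248854 and 1106450 belong to annotated genes and form the total for the scaled counts (CPM). A single gene read thus corresponds to 0.801 CPM for replicate 1 and to 0.904 CPM for replicate 2. The models to which gene reads were given had a mean length of 2347 bases in replicate 1 and 1545 bases in replicate 2. Models of the Genomic class, which overlap a gene without following its splicing, took 2.06% of the gene reads in replicate 1 and 6.49% in replicate 2. All 8 markers fixed for skeletal muscle fibres had reads, with a summed level of 304365 CPM in replicate 1 and 222820 CPM in replicate 2. The markers did not move together. Atp2a1 had 115580 CPM in replicate 1 and 35810 CPM in replicate 2, while Acta1 had 71568 and 72383 CPM. By the gene test described below, 2 of the 8 were called higher in replicate 1 and 2 higher in replicate 2. Over all genes tested, 8.83% were called higher in replicate 1 and 11.4% higher in replicate 2. The median log2 ratio of the 8 markers was -0.28. In such bulk tissue, fewer cells of a type and less RNA per cell cannot be told apart.

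Ndrg2 was by far the most abundant member. It had 2326 reads in replicate 1 and 1967 in replicate 2, or 1863 and 1778 CPM, a mean of 1820 ± 59.9 CPM (SD, n = 2). To compare genes, reads of full splice models, those that follow a complete annotated chain or a full chain of other splice sites, were divided by the mean length of those models. On that scale Ndrg2 stood at 791 CPM per kilobase in replicate 1 and 467 CPM per kilobase in replicate 2. Ndrg3 followed with 9.35 and 3.17 CPM per kilobase, Ndrg1 with 5.54 and 2.19, and Ndrg4 with 2.33 and 1.31, replicate 1 before replicate 2 in each pair. Both libraries gave the same order. The values of Ndrg3 and Ndrg1 overlapped, as did those of Ndrg1 and Ndrg4, so these neighbours cannot be ordered beyond their spread, while Ndrg2 lay above the other three in both.

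**Figure D2:**
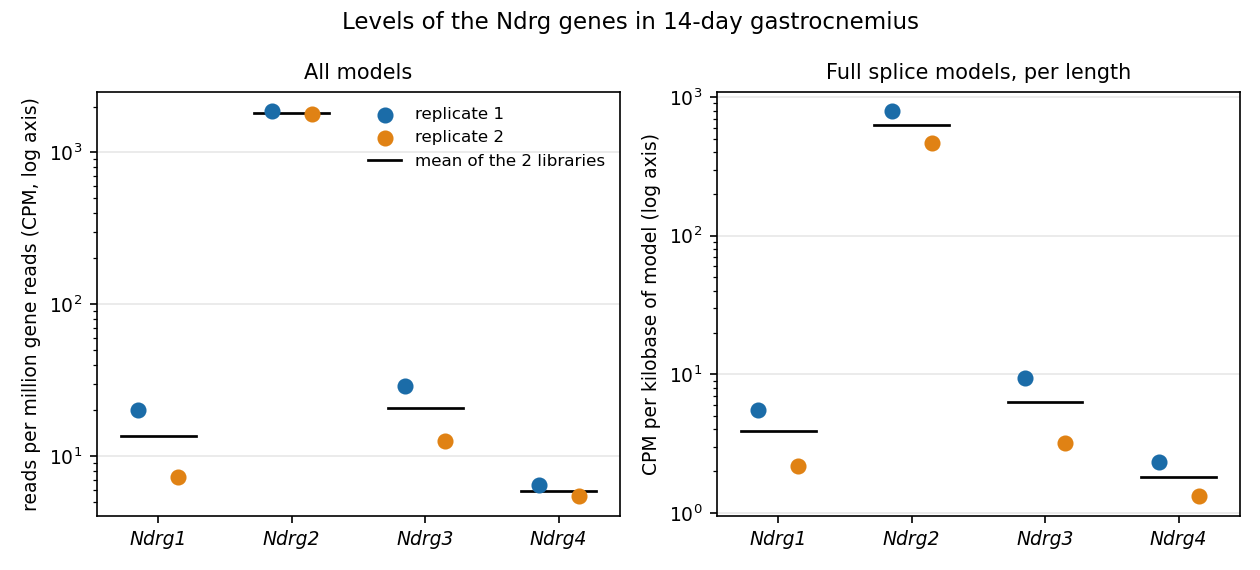
Level of each Ndrg gene in replicate 1 (blue) and replicate 2 (orange), with the mean as a line, on log axes; left, CPM over all models, and right, CPM per kilobase over full splice models. Ndrg2, at 1863 and 1778 CPM, stands above the other members in both libraries and on both scales.

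The genes nearest to Ndrg2 in level, by distance in log2(CPM + 1) over the 2 libraries, were Car3, Fabp3 and H19. Car3, a carbonic anhydrase typical of slow fibres, had 1571 CPM in replicate 1 and 1787 CPM in replicate 2, at a distance of 0.25. Fabp3, a fatty acid carrier of oxidative muscle, had 1703 and 1509 CPM, at 0.27. H19, an imprinted non-coding RNA high in young muscle, had 1787 and 1456 CPM, at 0.29. The distance counts all models, and a model of 13 bases in the last exon holds 820 of the 1967 Ndrg2 reads in replicate 2. With full splice models alone Ndrg2 had 1689 CPM in replicate 1 and 998 CPM in replicate 2. With 2 libraries of 1 group this likeness is a likeness of level only.

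Ndrg1 had 25 reads in replicate 1 and 8 in replicate 2, or 20.0 and 7.23 CPM. Replicate 1 was higher by 1.13 on the log2 scale after TMM scaling (Fisher's exact test on reads, Benjamini-Hochberg adjusted p = 0.0308). That passed the threshold used for a call, an adjusted p under 0.05 and a log2 ratio of at least 1 in either direction, and Ndrg1 was the 1 member of 4 to pass it. The scaling enters the ratio and not Fisher's test, so the adjusted p of Ndrg1 was the same with scaling by totals. The same holds for the other genes given below. Over all 8973 genes tested, 1813 were called, which is 20.2%. Calls with the higher value in replicate 1 made up 8.83% of the genes tested, and those with it in replicate 2 made up 11.4%. The call was lost with full splice models alone (20 and 7 reads, log2 ratio 0.84, adjusted p = 0.129) and in 3 other settings. Of 11 Schwann cell markers, all with reads, 8 were tested and 3 were called, Mbp, Pmp22 and S100b, each higher in replicate 2. With full splice models alone 5 were tested and 2 were called, both higher in replicate 2. The markers summed to 480 CPM in replicate 1 and 1004 CPM in replicate 2, the other way from Ndrg1. Pmp22, a membrane protein of compact myelin, had 331 and 648 reads, and Mbp had 174 and 330. These genes held most of the reads of the list, 600 in replicate 1 and 1111 in replicate 2. The part of the markers in the level of Ndrg1 was not tested.

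Ndrg3 had 36 reads in replicate 1 and 14 in replicate 2, or 28.8 and 12.7 CPM. The log2 ratio was 0.87 (Fisher's exact test, adjusted p = 0.0256), below the size needed for a call. It reached 1.16 when libraries were scaled by their totals and 1.08 with full splice models alone, and both would be called. Ndrg4 had 8 and 6 reads, or 6.41 and 5.42 CPM, near the limit of 2.40 CPM in replicate 1 and 2.71 CPM in replicate 2 that a count of 0 allows. Its log2 ratio was -0.07 (adjusted p = 0.898) and turned to 0.21 with scaling by totals, so no direction is given. The scaling by totals moved the median log2 ratio of all genes to 0.27, against -0.01 with TMM.

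Ndrg2 gave a log2 ratio of -0.22 (Fisher's exact test, adjusted p = 0.252), and the sign of the ratio depended on the scaling and on what was counted. Scaling by totals gave 0.07 with the same adjusted p, since the test does not use the scaling. Full splice models alone gave 0.33 (2109 reads in replicate 1 and 1104 in replicate 2, adjusted p = 7.3e-30), and that p-value also leaves out the scaling. None of these reached the size needed for a call. A single model moved the value. It has 1 exon of 13 bases at chr14:51905271-51905283, in the last exon, between the annotated ends of Ndrg2-201 and Ndrg2-202, and belongs to the Genomic class. It took 99 of 2326 reads in replicate 1, or 4.26% (95% Wilson interval 3.51 to 5.15), and 820 of 1967 reads in replicate 2, or 41.7% (39.5 to 43.9). Without it the log2 ratio of Ndrg2 was 0.50, still under the size of a call. The deposited tables give the length of the model and not of the reads behind it.

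Such models were more common in replicate 2 in general. Genomic models of at most 50 bases held 2856 reads over 344 genes in replicate 1 and 19662 reads over 835 genes in replicate 2. Among Genomic models of annotated genes, that of Ndrg2 ranked 29th by reads of 6274 in replicate 1 and 8th of 9214 in replicate 2. The part of the shorter models of replicate 2 in this difference was not tested.

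Almost all other Ndrg2 reads followed a complete chain. Known models held 991 reads in replicate 1 and 520 in replicate 2. Models that join annotated splice sites in a combination not annotated (NIC) held 1083 and 565 reads. Models with a splice site outside the annotation (NNC) held 35 and 19 reads, and models that match part of a known chain (ISM) held 116 and 43. Since the Genomic class took 4.34% of the Ndrg2 reads in replicate 1 and 41.7% in replicate 2, the comparisons that follow use the full splice reads as the total.

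Ndrg2 has 2 first exons in these reads, and they were used almost equally. The upstream one (chr14:51913924-51914158 in its longest annotated form) and the downstream one (chr14:51913323-51913488) have donor sites 601 bases apart and are joined to the same exon 2. The start codon used here lies in exon 2 after 6 bases of that exon, and with it both first exons are untranslated. The coding starts of the annotated transcripts with the upstream exon were not compared. Of the reads that join a first exon to exon 2, 1065 of 2105 in replicate 1 carried the upstream exon, or 50.6% (48.5 to 52.7). In replicate 2 it was 563 of 1103, or 51.0% (48.1 to 54.0). The downstream exon had 1016 reads in replicate 1, or 48.3% (46.1 to 50.4), and 532 in replicate 2, or 48.2% (45.3 to 51.2). Other donor sites had 24 and 8 reads. The means over the libraries were 50.8% ± 0.317 for the upstream exon and 48.2% ± 0.0240 for the downstream one (SD, n = 2).

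In M21 the upstream first exon appears in 2 of the 13 annotated Ndrg2 transcripts, Ndrg2-209 and Ndrg2-210, and neither reaches a stop codon. The downstream first exon appears in 5, of which 2 are complete. The reads therefore add a full chain to the annotation: the upstream first exon followed by all 15 remaining exons of Ndrg2-201. This NIC chain had 988 reads in replicate 1 and 527 in replicate 2, the most of any full splice Ndrg2 model in both. It took 46.8% (44.7 to 49.0) of the full splice reads in replicate 1 and 47.7% (44.8 to 50.7) in replicate 2. Ndrg2-201, which differs from it in the first exon alone, had 951 and 498 reads, or 45.1% (43.0 to 47.2) and 45.1% (42.2 to 48.1).

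The same pair recurs without the cassette exon. The chain with the upstream first exon that skips exon 3 had 51 reads in replicate 1, or 2.42% (1.84 to 3.17), and 28 in replicate 2, or 2.54% (1.76 to 3.64). Ndrg2-202, with the downstream first exon and no exon 3, had 40 reads, or 1.90% (1.40 to 2.57), and 22 reads, or 1.99% (1.32 to 3.00). None of these 4 shares was called different between the libraries (Fisher's exact test, adjusted p = 1 for each), with differences of -0.89, -0.02, -0.12 and -0.10 percentage points, replicate 1 minus replicate 2, in the order given. Over all 2832 chains tested in the series 127 were called, or 4.48%. Together the 4 chains held 2030 of 2109 full splice reads in replicate 1, or 96.3% (95.4 to 97.0), and 1075 of 1104 in replicate 2, or 97.4% (96.3 to 98.2).

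**Figure D3:**
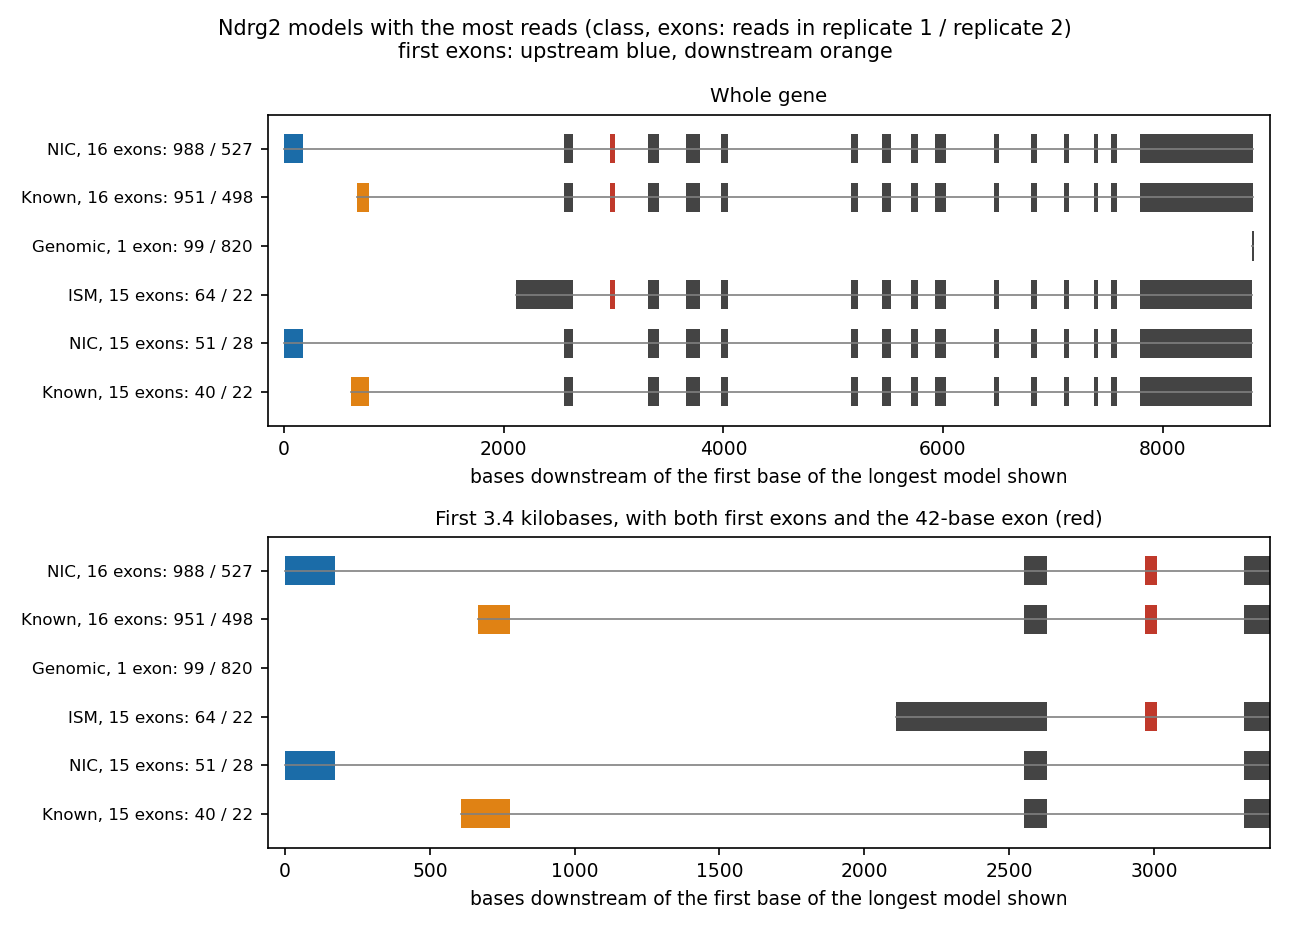
The 6 Ndrg2 models with the most reads, drawn to scale in the direction of transcription, with exons as boxes; x is the distance in bases from the first base of the longest model. The 2 leading chains (988 / 527 and 951 / 498 reads, replicate 1 before replicate 2) differ in the first exon, and the 42-base exon is red.

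**Figure D4:**
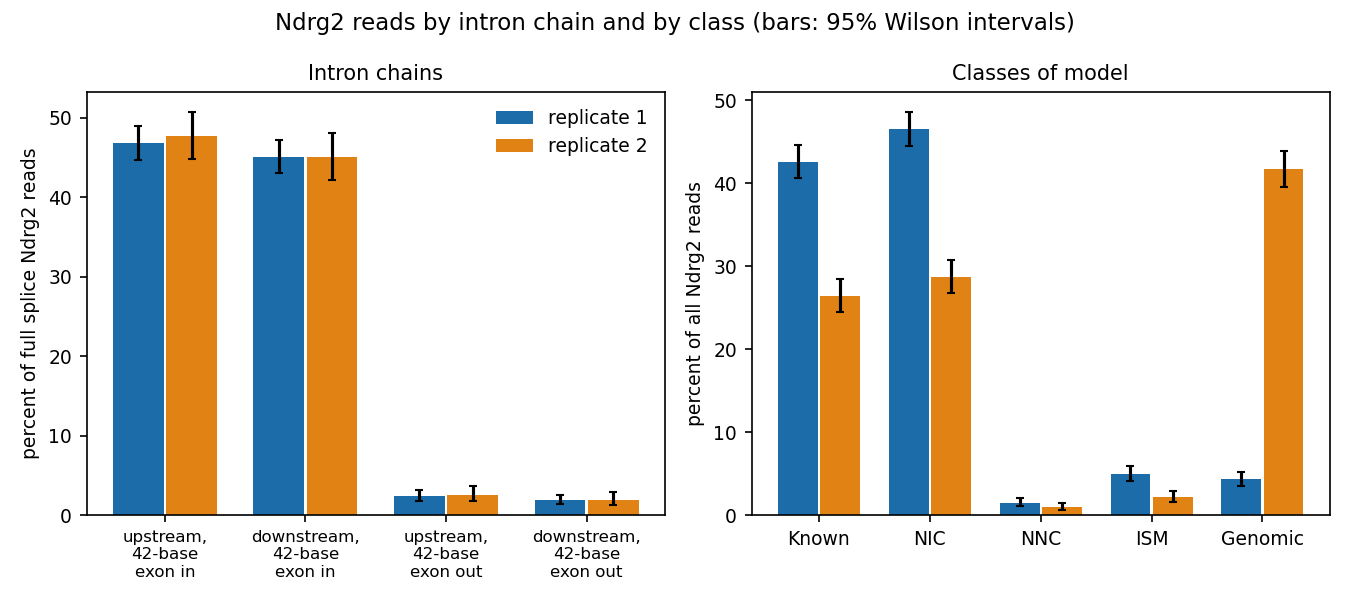
Left, share of full splice Ndrg2 reads in each of the 4 main chains, and right, share of all Ndrg2 reads by class of model, in replicate 1 (blue) and replicate 2 (orange) with 95% Wilson intervals. The chain shares lie within 1 percentage point of each other between the libraries, while the Genomic class holds 4.34% in replicate 1 and 41.7% in replicate 2.

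With every model in the total, both leading chains did differ between the libraries. The upstream chain then took 42.5% in replicate 1 and 26.8% in replicate 2 (adjusted p = 3.1e-25), and Ndrg2-201 took 40.9% and 25.3% (adjusted p = 2.5e-25), in a test that called 19.4% of 3337 chains. When the 13-base model was left out of that total, the differences were -1.58 and -0.71 percentage points, replicate 1 minus replicate 2, with adjusted p = 0.686 and 0.930.

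Exon 3 was included in nearly all transcripts. It was present in 2068 of 2162 informative reads in replicate 1, or 95.7% (94.7 to 96.4), and in 1073 of 1127 in replicate 2, or 95.2% (93.8 to 96.3), a mean of 95.4%. Inclusion was not called different between the libraries (Fisher's exact test, adjusted p = 1, a difference of 0.44 percentage points), in a test that called 3 of 3661 exons, or 0.0819%. The exon was singled out after its values were seen, because no internal exon of the family with enough reads had an inclusion of 10 to 90%.

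The choice of first exon and that of exon 3 were set side by side as a description. Of reads with the upstream first exon, 52 of 1058 skipped exon 3 in replicate 1, or 4.91% (3.77 to 6.39), and 30 of 563 in replicate 2, or 5.33% (3.76 to 7.50). Of reads with the downstream first exon, 41 of 1012 skipped it in replicate 1, or 4.05% (3.00 to 5.45), and 23 of 531 in replicate 2, or 4.33% (2.90 to 6.42). The upstream exon had the higher share in both libraries, and the intervals of the 2 first exons overlapped in both.

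**Figure D5:**
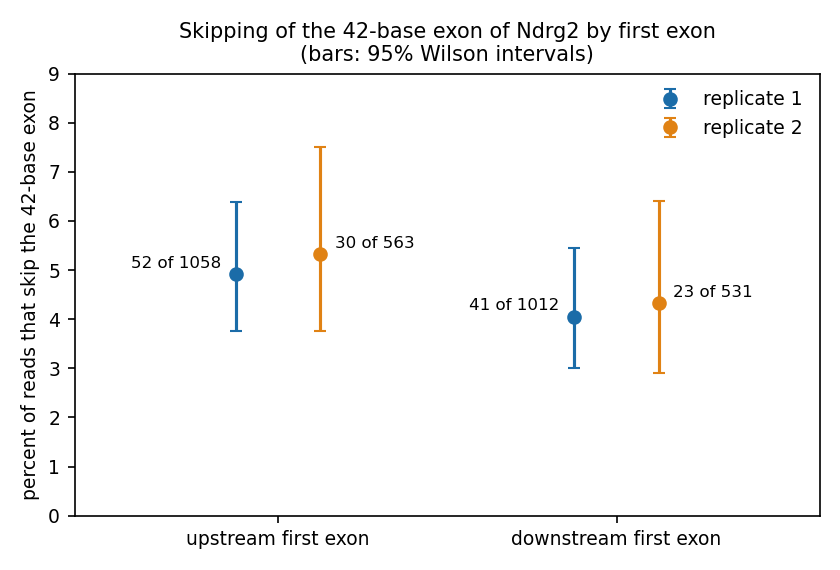
Percent of Ndrg2 reads that skip the 42-base exon, by first exon, in replicate 1 (blue) and replicate 2 (orange), with 95% Wilson intervals and read counts. All 4 shares lie between 4.05% and 5.33%, and the intervals overlap.

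With the start codon in exon 2, the first exons make no difference to the protein, so the chains were grouped by their coding introns. The coding introns of Ndrg2-201 were found in 1964 of 2104 full splice reads with a first exon in replicate 1, or 93.3% (92.2 to 94.3), and in 1034 of 1103 in replicate 2, or 93.7% (92.2 to 95.0). Those of Ndrg2-202 were found in 92 and 50 reads, or 4.37% (3.58 to 5.33) and 4.53% (3.46 to 5.93). All other coding chains shared 48 reads in replicate 1 and 19 in replicate 2, or 2.28% and 1.72%.

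Those others were many and thin. Of 52 full splice chains in replicate 1, 32 rested on 1 read, and of 25 in replicate 2, 16 did. In all, 14 chains were seen in both libraries, which is 26.9% of those in replicate 1 and 56.0% of those in replicate 2. The most used splice site outside the 4 main chains was a donor of exon 12 that ends the exon 3 bases early, at 51907249 in place of 51907246 on chromosome 14. It had 10 of 2210 reads in replicate 1, or 0.452% (0.246 to 0.831), and 9 of 1142 in replicate 2, or 0.788% (0.415 to 1.49). An acceptor of exon 3 that lies 3 bases downstream of the usual one gives an exon of 39 bases and had 5 and 1 reads. Both shifts keep the reading frame.

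Reads given to models without a separate first exon were few. Within the ISM class, 65 reads in replicate 1 and 25 in replicate 2 were given to models that begin 443 bases upstream of exon 2. These models run into exon 2 unspliced, and their start is that of the short annotated transcript Ndrg2-207. As the models take an annotated start, the base at which the reads themselves began is not known. Of the reads with no joined first exon that were informative for exon 3, 68 of 68 in replicate 1 and 25 of 26 in replicate 2 included it. A donor upstream of every annotated start, at 51914324, was seen in 3 and 2 reads.

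The start regions of the 2 first exons were compared in the RefSeq promoter windows (GRCm38.p6), 250 bases before each start. RefSeq places starts at 51914004, in the upstream first exon, and at 51913488 and 51913329 for the downstream one. The deposited models of the 4 main chains begin at annotated starts, so for them the tables give the exon used and not the base of initiation. The motif of MEF2, a transcription factor family of muscle genes, was searched on both strands with its 4 central bases free to be A or T. It occurred once before the upstream start and not in the windows of the downstream starts. Of 32851 windows of the same length, 167 held it, or 0.508%. The stretches from 42 to 13 bases before the starts at 51914004 and 51913488 are chr14:51914017-51914046 and chr14:51913501-51913530, minus strand, with the MEF2 match in capitals.
Upstream start: cgttcatcctCTATTTATAGcggcccccag
Downstream start: atcacctctgtgtgctcccaagccgcaccc
The match spans 32 to 23 bases before the upstream RefSeq start. It lies inside the first exon of the deposited models, which begin at 51914097. TATAAA, found in 12.4% of windows, was in the upstream window at the same place, inside the MEF2 match on the other strand, and in neither downstream window. CACGTG (6.02% of windows), CAGCTG (13%) and ACGTG (16.6%) were in none of the 3 Ndrg2 windows. CANNTG, found in 66.2% of windows, had a match in each downstream window and none in the upstream one. In the windows of the other members, 2 for Ndrg3 and 4 for Ndrg4, the MEF2 motif had no match, and no Ndrg1 window was compared. TATAAA had a match that began 30 bases before the Ndrg4 start at 95703056. CACGTG had one that began 38 bases before the Ndrg4 start at 95677763. ACGTG is part of CACGTG, and CACGTG and CAGCTG are both forms of CANNTG. These matches describe letters and not binding.

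The chains of the other members rest on few reads. Ndrg1 had a single full splice chain, that of Ndrg1-201, with 20 reads in replicate 1 and 7 in replicate 2, and all of them included the 36-base exon. Its remaining reads belonged to 2 partial models and 1 unspliced model. Ndrg3 reads were mostly Ndrg3-202, without the 39-base exon, with 19 and 5 reads, against 6 and 2 for Ndrg3-201, which has it. Over all its models, 9 of 34 informative reads in replicate 1 included that exon, or 26.5% (14.6 to 43.1), and 3 of 11 in replicate 2, or 27.3% (9.75 to 56.6). The 36-base exon of Ndrg3 was in all 28 and 9 informative reads. Ndrg4 reads were mostly Ndrg4-203, without its 39-base exon, with 6 and 4 reads, and Ndrg4-202, with it, had 1 read in replicate 1 and 0 in replicate 2. Inclusion in Ndrg4 was thus 1 of 8 and 0 of 4 reads, with intervals reaching 47.1% and 49.0%. Read counts of Ndrg3 and Ndrg4 were too low for the test of inclusion. Models of other genes over the Ndrg loci, all on the opposite strand, had 1 read at Ndrg1 and 2 at Ndrg3 in replicate 1, and 1 read at Ndrg3 in replicate 2.

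Of 24 kinases, phosphatases and transcription factors listed for their known ties to the family, 22 had reads and Sgk2 and Wt1 had none. Of the 17 tested, 4 were called, all higher in replicate 1, against 20.2% of all genes called in either direction and 8.83% called higher in replicate 1. The median log2 ratio of the 17 was 0.70, against -0.01 over all genes tested. Sgk1, the glucocorticoid-induced kinase that phosphorylates NDRG1 and NDRG2, had 306 reads in replicate 1 and 45 in replicate 2, or 245 and 40.7 CPM (log2 ratio 2.29, Fisher's exact test, adjusted p = 1.4e-40). Nr3c1, the glucocorticoid receptor, had 34 and 11 reads (log2 ratio 1.13, adjusted p = 0.0107). Prkcq, the protein kinase C form abundant in muscle and also reported to phosphorylate NDRG2, had 67 and 21 reads (log2 ratio 1.19, adjusted p = 7.4e-05). Epas1, an oxygen-sensitive transcription factor, had 94 and 26 reads (log2 ratio 1.38, adjusted p = 1.5e-07). These are differences between 2 libraries of 1 group, given without removal of the trend of the ratio with model length. With that trend removed, calls over all genes fell from 1813 to 596.

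The 6 most abundant by mean CPM included Sgk1 and 5 that were not called. Ppp2ca, a catalytic subunit of protein phosphatase 2A, had 254 CPM in replicate 1 and 167 CPM in replicate 2. Akt1 and Akt2, kinases of the insulin pathway, had 202 and 117 CPM for Akt1, and 116 and 83.1 CPM for Akt2. Egln1, the oxygen-sensing prolyl hydroxylase, had 175 and 106 CPM. Ppm1a, a protein phosphatase, had 119 and 55.1 CPM. Mycn (N-myc), for which the family is named, had 1 read in each library, and Myc had 21 and 12 reads. Among markers of nerve, the 8 neuron genes had 6 reads in replicate 1 and 3 in replicate 2 in all, and 5 of them, Nefl, Nefm, Rbfox3, Snap25 and Tubb3, had none.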

How the data were processed

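The deposited values are raw read counts per transcript model, 1 table per library, with a matching annotation of exons; per the file headers, models carry TALON classes, and per the notes deposited beside the files they rest on mm10 and GENCODE M21. Sources used here do not give the aligner, filters or versions. Exon counts and model lengths come from the same deposited tables. The 2 libraries form 1 group; p-values compare the reads of the libraries. Reads were summed per gene, intron chain or exon. CPM, reads per 1000000 reads of annotated genes, left out spike-ins. Fisher's exact test (scipy 1.17.1) was two-sided, over all genes with at least 10 reads, all chains with at least 10 reads in genes with 50 full splice reads per library, and all exons with 20 informative reads per library, with Benjamini-Hochberg adjustment over each whole table. Ratios used TMM scaling (edgeR 4.0.16) and a prior count of 0.5. The scaling entered the ratios and not Fisher's test. Scaling by total reads and DESeq2 1.42.0 size factors were alternatives. Intervals are Wilson intervals at 95% and, like the limit of 3 reads for a count of 0, cover counting error only. Named were the 4 members, up to 8 chains each, alternative exons, the 3 genes nearest to Ndrg2, and of the regulators the 6 most abundant and those called. The members and lists were chosen with earlier results of these data known. The statistics were tested on simulated counts with counting error only. Those counts had no further spread between libraries and no trend with model length, so they do not cover these features of the data. A marker gene is not reported here.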

Additional observations from a re-analysis of the deposited data

How the results depend on the processing

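No paired analysis was possible because both libraries belong to 1 group. Of 53 values recomputed under alternatives that keep both libraries, 38 were rated the same, and no called value changed sign. That rating means the same side of the threshold, a mean within 1 SD, or a count of called genes within a fixed fold of the main count. The call of Ndrg1 was lost with full splice models only (log2 ratio 0.84), after removal of the trend with model length (0.82), with genes of at least 1 read (1.13, adjusted p = 0.0532) and with edgeR's exact test at a common dispersion (1.17, adjusted p = 1). Ndrg3 was called with scaling by totals (1.16) and with full splice models only (1.08). Genes called over all genes fell to 596 without the length trend and to 11 with edgeR's exact test, against 1813; the mean length used for the trend includes the 13-base model of Ndrg2. The count of 11 follows from a biological coefficient of variation of 0.390 in edgeR's test, which Fisher's test does not have. That coefficient was estimated from the same 2 libraries taken as 1 group, so the differences under test also set it. The setting therefore cannot decide whether a gene such as Ndrg1 differs between the libraries. With all models in the total, the leading Ndrg2 chains differed by 15.7 and 15.6 percentage points, and the mean shares of the 4 chains were 34.6%, 33.1%, 1.81% and 1.42%, upstream before downstream and with exon 3 before without. The share of Ndrg2-201 was 45.7% when chains of 1 read were left out. With 1 library left out no spread remains: the level of Ndrg1 was 20.0 CPM in replicate 1 alone and 7.23 CPM in replicate 2 alone, against a mean of 13.6 CPM, and that of Ndrg3 was 28.8 and 12.7 CPM, against 20.7 CPM. The alternatives without the 13-base model were chosen after seeing the data. Depth limits Ndrg1, Ndrg3 and Ndrg4, at 6 to 36 reads per library, and splice sites used by a few reads of Ndrg2.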
